A study of Mus musculus with 4 samples.

Results

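The miR-30 family was followed in the stromal-vascular fraction (SVF) of mouse visceral white adipose tissue (visWAT), the cells left after digestion of the tissue and removal of the fat-laden adipocytes. The members were 7 mature arms named by their miRNA names on the array, out of 1247 mouse miRNAs: the 5p arms mmu-miR-30a-5p, mmu-miR-30b-5p, mmu-miR-30c-5p, mmu-miR-30d-5p and mmu-miR-30e-5p and the 3p arms mmu-miR-30a-3p and mmu-miR-30e-3p, written below without the species prefix. They were listed by name, with earlier results of these data known. Total RNA was hybridised with 1 dye to 4 Agilent miRNA arrays on 1 slide. There were 2 arrays from mice given PBS (vehicle) and 2 from mice given the β3-adrenoceptor agonist CL 316243 (CL) at 1 mg/kg for 3 days. All mice were 8-week-old female C57BL/6 animals on standard diet, and each array held RNA pooled from 5 mice. The labels spell the strain as C57/BL6, C57/BL7, C57/BL8 and C57/BL9 in the 4 samples, while their growth protocol names C57/BL6 mice in each. The labels give housing at room temperature and subcutaneous treatment, where the methods of the study describe a move to thermoneutral housing before experiments and intraperitoneal injection.

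A miRNA is a short RNA that guides a silencing complex to messenger RNAs, mainly through its seed, bases 2 to 8 from the 5′ end. The 5p arms of the miR-30 family carry a common seed and therefore share most predicted targets. In fat cell biology, the family is known to promote differentiation of adipose progenitors, with the osteogenic factor RUNX2 as one target, and miR-30b and miR-30c are known to promote the thermogenic program of brown and beige adipocytes by repressing the co-repressor RIP140. The family is also known in endothelial cells, where it targets the Notch ligand DLL4. The comparison of CL with vehicle addresses which miRNAs of the visWAT SVF change while white fat is being driven toward a brown-like state.

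The mature sequences are shown because members of the family differ by very few bases, and because these bases decide which probe reads which arm. Sequences were taken from RefSeq on GRCm38.p6, which held 5 of the 7 members. Each is written 5′ to 3′ with its seed in capitals.
miR-30a-5p: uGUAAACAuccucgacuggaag
miR-30e-5p: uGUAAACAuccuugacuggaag
miR-30c-5p: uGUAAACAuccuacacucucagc
miR-30a-3p: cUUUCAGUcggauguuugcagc
miR-30e-3p: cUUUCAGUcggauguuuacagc
Among the arms of the array with a RefSeq sequence, 4 carried the 5p seed: miR-30a-5p, miR-30c-5p, miR-30e-5p and miR-384-5p. The 3p arms of miR-30a and miR-30e shared another seed. Counted from 1 at the 5′ end and from miR-30a to miR-30e, the 5p arms differed by 1 base, C13U, and the 3p arms by 1 base, G18A. From miR-30a-5p to miR-30c-5p there were 5 differences over the shared length, C13A, G14C, G18C, G19U and A20C, all outside the seed.

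The hairpins of miR-30a and miR-30e are shown because each yields both of the arms measured, which stand in capitals.
Mir30a: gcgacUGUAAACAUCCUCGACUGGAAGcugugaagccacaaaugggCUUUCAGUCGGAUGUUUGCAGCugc
Mir30e: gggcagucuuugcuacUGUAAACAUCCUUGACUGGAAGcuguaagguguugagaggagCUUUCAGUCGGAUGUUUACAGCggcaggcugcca
On GRCm38.p6, Mir30a lay at chr1:23272269-23272339 on the plus strand, and Mir30c-2 started 19432 bases further along the same strand, at chr1:23291701-23291784. Mir30e lay at chr4:120772606-120772697 on the minus strand, and Mir30c-1 at chr4:120769534-120769622, with 3072 bases between their starts. Both chromosome 4 hairpins lie within the span of Nfyc, which encodes a subunit of the transcription factor NF-Y. The 23 bases of miR-30c-5p are encoded in both Mir30c-1 and Mir30c-2, so that its signal cannot be divided between the hairpins.

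Each arm was read by 40 spots carrying 2 or 3 probes of 13 to 18 nucleotides (nt), 15 probes and 280 spots in all. The letters of 11 of these probes could be set against a RefSeq arm. All 11 paired to the last base of their arm, and 0 of them was found whole in another array miRNA with a sequence. The 17-nt probes of the 2 pairs of arms that differ by a single base are shown with that base in capitals.
miR-30a-5p probe: cttccagtcGaggatgt
miR-30e-5p probe: cttccagtcAaggatgt
miR-30a-3p probe: gctgCaaacatccgact
miR-30e-3p probe: gctgTaaacatccgact
The miR-30a and miR-30e probes of an arm thus differed by 1 mismatch. How much signal the other arm gives at such a mismatch was not measured.

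The scanner software called all 7 arms detected on all 4 arrays, so all 7 were tested. For 6 of them every one of the 40 spots was well above background on each array, and miR-30e-3p, the exception, had 35 and 28 such spots after vehicle and 24 and 34 after CL. No spot of the arrays was saturated. Signals below are normalised log2 signals, in which 1 unit is a doubling, and they compare arrays for one arm but not one arm with another, since probes differ in how strongly they bind.

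After CL, the arms of the family had fold changes of both signs. The arms of the miR-30a hairpin and miR-30c-5p were lower by about 0.4 to 0.5 on the log2 scale, miR-30b-5p and miR-30d-5p overlapped between the groups, and miR-30e-5p was higher on both CL arrays. At an unadjusted p of 0.05 in limma's moderated test, 3 of the 7 arms were lower and 0 higher, where 16.2% of the 425 tested miRNAs were lower and 18.8% higher. Adjusted over all 425, 0 arms and 0% of miRNAs passed 0.05, and the smallest adjusted p of any miRNA was 0.0880. The median log2 fold change of the 7 arms was -0.11, beside -0.01 for all tested miRNAs, whose quartiles were -0.33 and 0.34. The CL arrays lay both below the vehicle arrays for 4 arms, as they did for 34.8% of tested miRNAs, and both above for 1 arm, as for 38.1%.

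**Figure D1:**
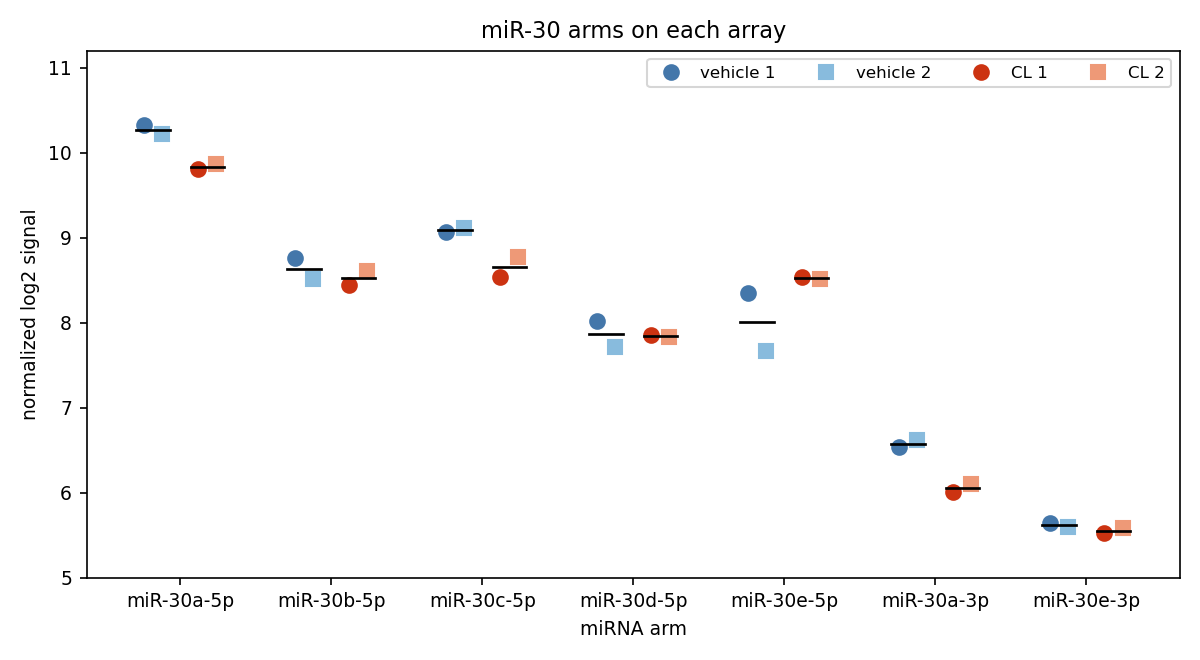
Normalised log2 signal (vertical axis) of the 7 miR-30 arms (horizontal axis) on the 2 vehicle arrays (blue) and the 2 CL arrays (red), with bars at the group means. The CL arrays lie below both vehicle arrays for miR-30a-5p, miR-30c-5p, miR-30a-3p and, by small distances, miR-30e-3p. They lie above both for miR-30e-5p, whose vehicle arrays read 8.35 and 7.66.

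The arms of the miR-30a hairpin had the smallest p-values of the 7. miR-30a-5p, which is known to repress the autophagy gene Becn1, read 10.33 and 10.22 after vehicle and 9.81 and 9.87 after CL. Both CL arrays were lower than both vehicle arrays, and the gap between the groups was larger than the distance between arrays of a group. The group means were 10.27 ± 0.08 and 9.84 ± 0.04 (SD, n = 2 each), a log2 fold change of -0.44 (SE 0.12, 95% interval -0.76 to -0.11), or 0.739 times the vehicle level. limma gave an unadjusted p of 0.0189 and an adjusted p of 0.106.

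miR-30a-3p, the other strand of the same hairpin, read 6.54 and 6.62 after vehicle and 6.01 and 6.11 after CL. Its groups also did not overlap. The log2 fold change was -0.52 (SE 0.12, 95% interval -0.85 to -0.20), 0.696 times the vehicle level, with an unadjusted p of 0.00994 and an adjusted p of 0.102 in limma. It was the lowest fold change of the 7 arms and lay at percentile 14.8 of all tested miRNAs, with miR-30a-5p at percentile 18.4.

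miR-30c-5p read 9.06 and 9.11 after vehicle and 8.54 and 8.77 after CL. Both CL arrays were again the lower ones, and they lay further from each other than the vehicle arrays did. The log2 fold change was -0.43 (SE 0.14, 95% interval -0.81 to -0.06), 0.741 times the vehicle level, with an unadjusted p of 0.0313 and an adjusted p of 0.121 in limma. The 3 calls were lost when either CL array was left out, with unadjusted p-values in limma from 0.142 to 0.421, when the lone CL array was taken to vary like the other group. They were also lost with median centring in place of quantile normalization, where limma gave these arms the same SE of 0.337. The p-values in limma were there from 0.0787 to 0.112 and the log2 fold changes from -0.59 to -0.53. With scaling to the 75th percentile of all probes the calls were lost as well, at p-values in limma from 0.142 to 0.410 and log2 fold changes from -0.45 to -0.24.

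miR-30e-5p had a fold change of the opposite sign to that of miR-30a-5p. It read 8.35 and 7.66 after vehicle and 8.53 and 8.52 after CL. Both CL arrays were above both vehicle arrays, but the vehicle arrays lay 0.69 apart while the CL arrays differed by 0.02. The log2 fold change was 0.52 (SE 0.26, 95% interval -0.17 to 1.20), 1.43 times the vehicle level, and did not pass the test, with an unadjusted p of 0.106 and an adjusted p of 0.213 in limma. One array decided its size: it was 0.86 without vehicle array 1 and 0.18 without vehicle array 2.

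miR-30e-3p, from the same hairpin, read 5.64 and 5.60 after vehicle and 5.52 and 5.59 after CL. The CL arrays were both lower, but vehicle array 2 and CL array 2 lay closer together than the arrays of either group. The log2 fold change was -0.06 (SE 0.12, 95% interval -0.37 to 0.25), with an unadjusted p of 0.612 and an adjusted p of 0.733 in limma.

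Of the arms tied to the thermogenic program, miR-30c-5p was called and miR-30b-5p was not, and the exact permutation p of their difference was 0.333, the smallest these arrays allow. miR-30b-5p read 8.77 and 8.51 after vehicle and 8.45 and 8.61 after CL. The groups overlapped, and the log2 fold change was -0.11 (SE 0.15, 95% interval -0.51 to 0.30, adjusted p = 0.648 in limma). miR-30d-5p, a further 5p arm tied to adipogenesis, read 8.03 and 7.72 after vehicle and 7.86 and 7.84 after CL. Both CL arrays lay between the vehicle arrays, and the log2 fold change was -0.03 (SE 0.15, 95% interval -0.43 to 0.38, adjusted p = 0.902 in limma). The lower ends of both intervals, -0.51 and -0.43, reach the estimate for miR-30c-5p.

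**Figure D2:**
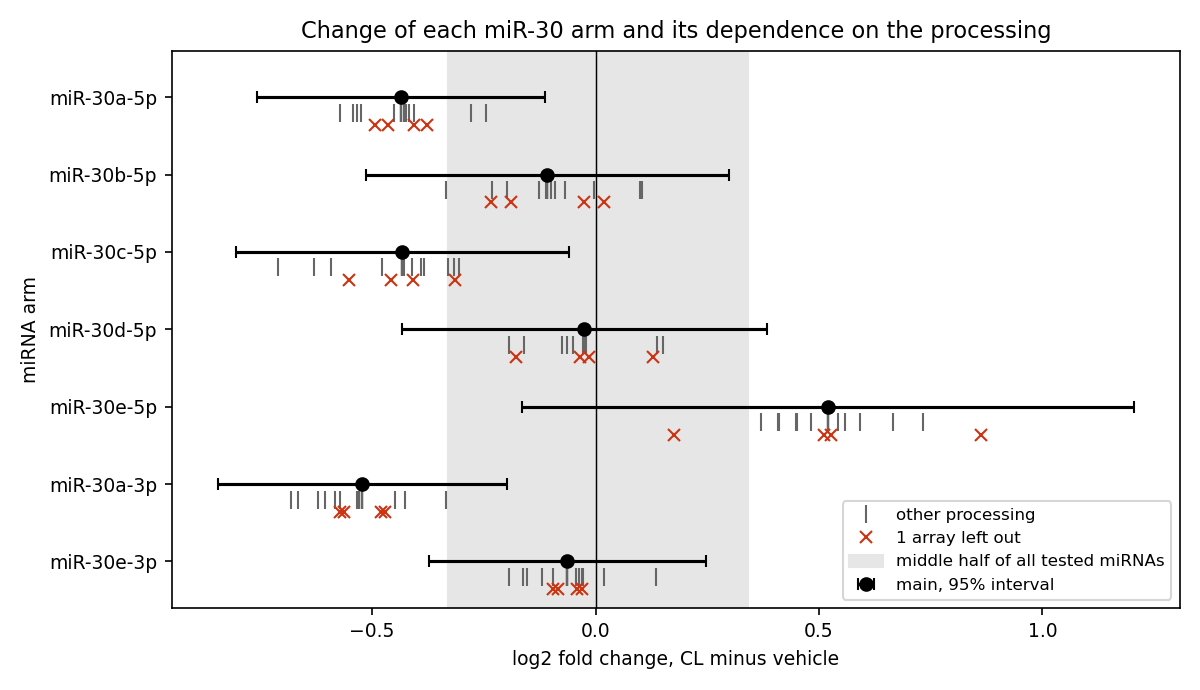
Log2 fold change, CL minus vehicle (horizontal axis), of the 7 miR-30 arms (vertical axis), as dots with 95% intervals. Ticks give the value under other ways of processing, crosses the value with 1 array left out, and the band the middle part of all tested miRNAs between the quartiles -0.33 and 0.34. miR-30a-5p, miR-30c-5p and miR-30a-3p stay below 0 and miR-30e-5p above it throughout, while miR-30b-5p, miR-30d-5p and miR-30e-3p fall on both sides.

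Vehicle arrays took up row 1 of the slide and CL arrays row 2, so row and treatment cannot be told apart. Columns 3 and 4 each held 1 array of each group and carry the replicate numbers. Within column 3 and column 4, the CL minus vehicle differences were -0.52 and -0.35 for miR-30a-5p, -0.53 and -0.51 for miR-30a-3p, and -0.53 and -0.34 for miR-30c-5p. For miR-30e-5p they were 0.18 and 0.85. Those of miR-30b-5p had opposite signs, -0.32 and 0.10, as did those of miR-30d-5p, -0.17 and 0.12. With the column as a block, 4 arms passed an unadjusted p of 0.05 in limma, where 36.7% of tested miRNAs did, and 0 arms passed an adjusted p of 0.05, where 20.2% did. The fourth was miR-30e-5p, with an unadjusted p of 0.0495 and an adjusted p of 0.135.

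The probes of an arm read the same molecule over different lengths, and were compared one by one. Spots of a probe are technical repeats on an array and were not counted as replicates. The median spot signal of the 17-nt probe of miR-30a-5p, in scanner units before background correction and normalization, was 2483 and 2064 after vehicle and 1430 and 1664 after CL. The 17-nt probe of miR-30e-5p, with its single different base, read 668 and 381 after vehicle and 627 and 690 after CL. The first probe was brighter on both vehicle arrays, and the second was dim on vehicle array 2 alone. Negative control spots averaged 37.1 and 31.7 after vehicle and 38.6 and 32.8 after CL.

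After normalization, the 3 probes of miR-30a-5p gave log2 differences of -0.38, -0.40 and -0.54 from the shortest to the longest, and 0 of its 40 spots was higher after CL. The probes of miR-30c-5p gave -0.47 at 17 nt and -0.39 at 18 nt, and those of miR-30a-3p -0.47 at 16 nt and -0.59 at 17 nt, with 0 of 20 spots higher for each probe. The probes of miR-30e-5p gave 0.44 at 16 nt and 0.58 at 17 nt, with 20 of 20 spots higher for each. For these 4 arms, the direction was thus shared by the probes and the spots of an arm.

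The remaining arms were mixed. Both probes of miR-30b-5p were slightly lower, at -0.11 and -0.13, and those of miR-30d-5p stood at -0.00 and -0.05. For miR-30e-3p the 18-nt probe was lower after CL by 0.17 on the log2 scale (a difference of -0.17, with 18 of 20 spots lower), and the 17-nt probe was higher by 0.15 (13 of 20 spots higher). The 17-nt probe read only 53.7, 45.2, 52.9 and 48.1 over the 4 arrays, near the negative controls, so that the arm's small change rests on probes of opposite direction.

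The probes also differ in base composition. The longest probes of miR-30b-5p and miR-30c-5p held 5.88% and 5.56% C, beside 23.5% for miR-30a-5p and miR-30e-5p and a median of 31.8% over the tested miRNAs. After a linear dependence of the signals on probe length and on the shares of C and G was fitted and removed array by array, the log2 fold changes were -0.71 for miR-30c-5p, -0.33 for miR-30b-5p, -0.52 for miR-30a-5p, -0.53 for miR-30a-3p and 0.41 for miR-30e-5p. The same 3 arms then passed an unadjusted p of 0.05 in limma, and miR-30d-5p, read by probes of 13 and 14 nt, turned to 0.14.

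**Figure D3:**
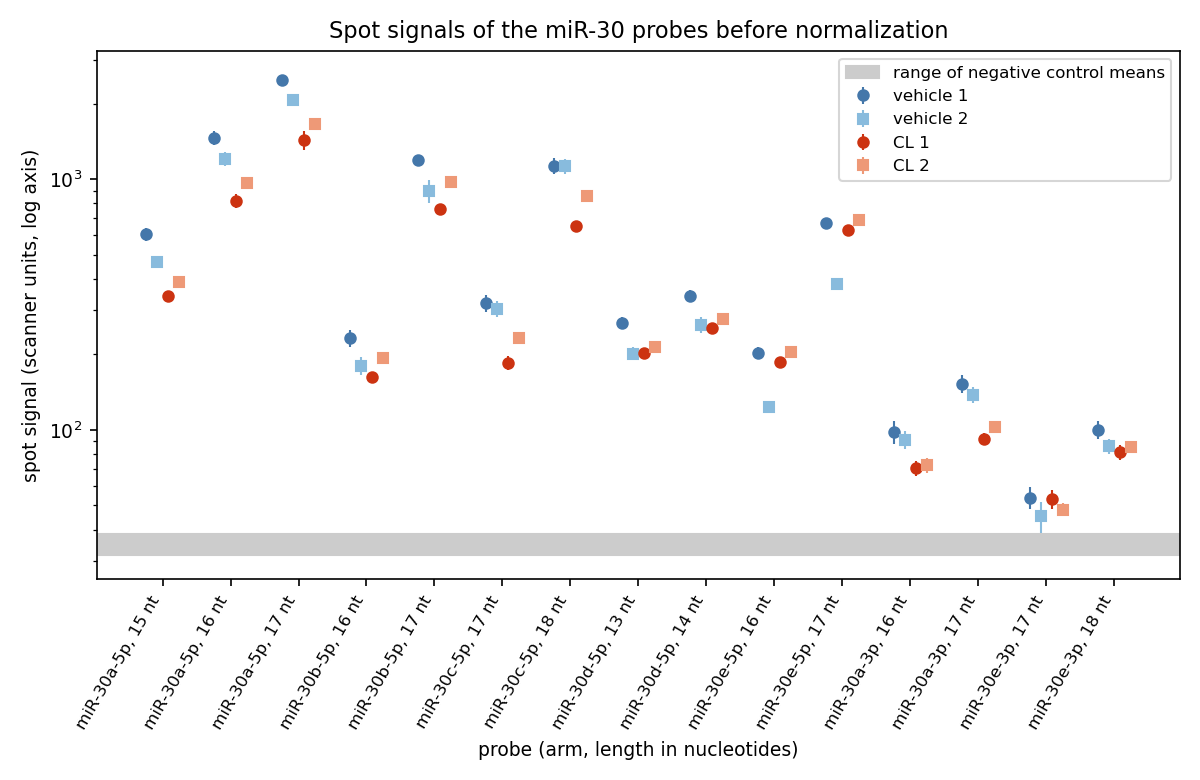
Median spot signal before normalization, in scanner units on a log axis (vertical), of the 15 miR-30 probes (horizontal axis, by arm and probe length) on the 4 arrays, with bars of 1 SD over the spots of a probe. All probes of miR-30a-5p, miR-30c-5p and miR-30a-3p are brighter on the vehicle arrays, those of miR-30e-5p are dimmest on vehicle array 2, and the 17-nt probe of miR-30e-3p lies nearest to the grey band of negative control means.

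The ratio of 2 arms on the same array was then compared between the groups, since a shift of a whole array leaves such a ratio unaltered. The log2 ratio of miR-30a-5p to miR-30e-5p was 1.98 and 2.55 after vehicle and 1.28 and 1.35 after CL. Both CL arrays were lower, and the fold changes of these arms differed by -0.96. The log2 ratio of miR-30c-5p to miR-30e-5p was 0.71 and 1.45 after vehicle and 0.00 and 0.26 after CL, a difference of -0.95, which was -0.58 without vehicle array 2.

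Between the 3p arms of miR-30a and miR-30e, the log2 ratio was 0.90 and 1.02 after vehicle and 0.48 and 0.52 after CL, a difference of -0.46 that ran from -0.68 to -0.31 over the alternatives. The 3p arms thus parted in the same direction as the 5p arms, through a lower miR-30a-3p. The miR-30e-3p side of the ratio rests on probes of opposite direction, of which the 17-nt probe read near the negative controls. Among the other pairs of 5p arms, miR-30a-5p and miR-30c-5p had nearly equal fold changes, with a difference of -0.00 (-0.16 to 0.19 over the alternatives) and overlapping ratios. miR-30b-5p and miR-30d-5p differed by -0.08, also with overlap.

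Within the miR-30a hairpin, the log2 ratio of the 5p to the 3p arm was 3.79 and 3.60 after vehicle and 3.80 and 3.76 after CL. The groups overlapped and the difference was 0.09, and it ran from -0.09 with local background and an offset of 50 to 0.39 with the scanner total, so its direction was not settled by these arrays. Within the miR-30e hairpin, the ratio was 2.71 and 2.07 after vehicle and 3.01 and 2.93 after CL, a difference of 0.58 without overlap, which was 0.26 without vehicle array 2 and 0.90 without vehicle array 1. Of 13 pairs of arms compared, 10 did not overlap between the groups, beside 72.9% of single miRNAs. A two-sided exact permutation test over 2 against 2 arrays cannot give a p under 0.333, which was the p of each of these 10 pairs (0.433 after Benjamini-Hochberg adjustment).

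**Figure D4:**
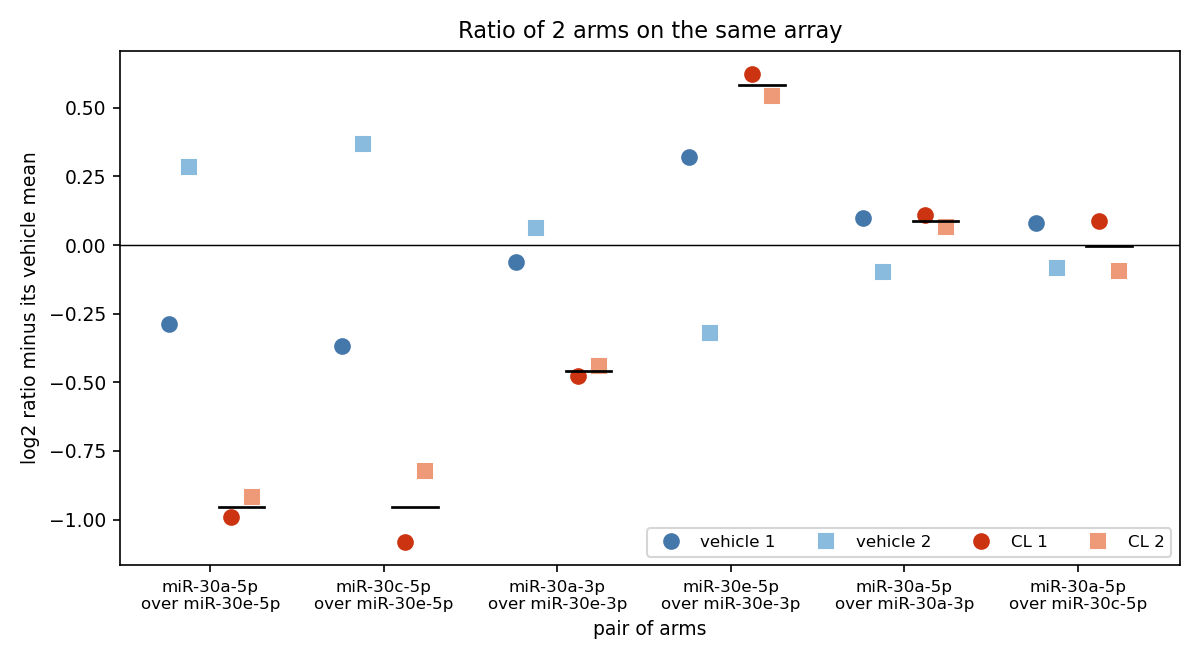
Log2 ratio of 2 arms on the same array minus the mean of the vehicle arrays (vertical axis) for 6 pairs of miR-30 arms (horizontal axis), with a bar at the CL mean. The CL arrays lie below both vehicle arrays for the pairs of miR-30a and miR-30c with miR-30e, and above both for miR-30e-5p over miR-30e-3p. The groups overlap for miR-30a-5p over miR-30a-3p and miR-30a-5p over miR-30c-5p.

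The other strands of the family had fewer spots above background. miR-30c-2-3p, which shares its hairpin with miR-30c-5p and lies on the same strand as Mir30a, read 5.09 and 5.21 after vehicle and 4.73 and 4.87 after CL. Both CL arrays were lower, and the log2 fold change was -0.35 (SE 0.13, unadjusted p = 0.0454, adjusted p = 0.137 in limma). With the column as a block its unadjusted p was 0.0777, and from 13 to 20 of its 40 spots were well above background. The call held in 7 of 22 alternatives, over which the log2 fold change ran from -0.82, with the 75th percentile over detected probes, to 0.14, in the opposite direction, in the scanner's total per miRNA.

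miR-30c-1-3p, from the hairpin beside Mir30e, read 3.93 and 3.89 after vehicle and 4.32 and 3.98 after CL. Its log2 fold change was 0.24 (SE 0.16, adjusted p = 0.327 in limma), with at most 8 of 40 spots well above background. miR-30b-3p read 4.64 and 4.58 after vehicle and 4.65 and 4.82 after CL, a log2 fold change of 0.12 (SE 0.13, adjusted p = 0.506 in limma). Both were slightly higher on the CL arrays and did not pass the test. miR-30d-3p, miR-30f and miR-384-5p, the last with the seed of the 5p arms, were detected on no array and were not tested.

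To find miRNAs with a like pattern, the log2 signals of each tested miRNA were centred on their mean over the 4 arrays and compared with the mean centred pattern of the 5 miR-30 5p arms. That pattern was 0.18, -0.08, -0.09 and -0.01 over vehicle 1, vehicle 2, CL 1 and CL 2, which is high on vehicle array 1 and nearly flat over the others. Of miRNAs outside the family, the nearest were miR-192-5p (root mean square difference 0.0312), miR-542-3p (0.0348), let-7f-5p (0.0445), let-7a-5p (0.0459) and miR-335-5p (0.0556), against a median of 0.249 over all tested miRNAs. Their log2 fold changes were small, from -0.17 for let-7f-5p to -0.06 for miR-192-5p. Of the family, miR-30b-5p (0.0288) and miR-30d-5p (0.0539) lay as near, but each is itself part of the mean it was compared with. Of the 3p arms, which are not part of it, miR-30e-3p lay at 0.0799 and miR-30a-3p at 0.246. miR-30a-5p (0.178), miR-30c-5p (0.209) and miR-30e-5p (0.344) lay further away, so that the mean pattern described few of its own members.

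The miR-30 arms were set beside other miRNAs known in fat cell differentiation. Of 12 miRNAs known to promote browning or brown fat differentiation, 11 were tested, and at an unadjusted p of 0.05 in limma 4 were higher and 1 lower after CL, beside 35.1% of all tested miRNAs called in either direction, and the median over the list was 0.12 on the log2 scale. Furthest up were miR-193a-3p at 1.37, miR-196a-5p, which represses the white fat factor Hoxc8, at 0.80, and miR-455-5p at 0.69. Without vehicle array 2, miR-193a-3p stood at 0.76. Of 10 known to restrain browning, all tested, 3 were higher and 0 lower, with a median of 0.32. The share called in either direction lay below the 35.1% over all miRNAs, where 18.8% were called higher and 16.2% lower. The restrainers called were miR-125b-5p at 0.86, miR-106b-5p at 0.74 and miR-34a-5p, known to restrain FGF21 signalling, at 0.72.

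Of 9 miRNAs known to promote adipogenesis, 8 were tested, 2 were higher and 1 lower, close to the 35.1% called over all miRNAs, with a median of -0.01. Those called were miR-21a-5p at 1.00, miR-210-3p at 0.36 and miR-204-5p, which like the miR-30 5p arms targets Runx2, at -0.87. Without vehicle array 2, miR-21a-5p stood at 0.53. Of 12 known to restrain adipogenesis, 10 were tested, 2 were higher and 1 lower, a share below that over all miRNAs, with a median of -0.03. Those called were miR-145a-5p at -0.75, miR-130b-3p at 0.37 and miR-224-5p at 0.37. The restrainer lists share miR-27a-3p, miR-27b-3p and miR-155-5p. None of these lists held a miRNA past an adjusted p of 0.05 in limma. Called miRNAs were mostly or all higher in both browning lists and went both ways in both adipogenesis lists. These calls are few and are not read as a trait of the lists. The side of the calls also moved with the scaling. Of all calls, 53.7% were higher here, 34.3% without normalization and 61.7% with scaling to the 75th percentile of all probes.

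The SVF holds several cell types, and in its pooled RNA fewer cells of a type and less RNA per cell cannot be told apart. Marker miRNAs of several types were called beside the miR-30 arms, at an unadjusted p of 0.05 in limma. Of all tested miRNAs, 16.2% were lower and 18.8% higher by that measure. No miRNA, and so no marker, passed an adjusted p of 0.05. Both endothelial markers were lower after CL, by log2 fold changes of -1.37 for miR-126-3p and -0.80 for its partner arm miR-126-5p, at an unadjusted p of 0.05, with summed linear signals of 14238 to 15504 after vehicle and 5149 to 6470 after CL. All 4 fibroblast markers of the miR-199 and miR-214 group were higher. Their sums were 3409 on vehicle array 1, 2020 on vehicle array 2 and 6174 to 6302 after CL. Of the red cell markers 3 of 3 tested were higher, with sums of 8204 to 9550 and 14295 to 16907.

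Of 5 leukocyte markers 2 were higher and 1 lower. Their sums were 2341 on vehicle array 1, 1770 on vehicle array 2 and 3361 to 3449 after CL. Of 2 mural cell markers 1 was lower (536 to 635 after vehicle and 393 to 426 after CL). Of 3 muscle markers 0 was called, with sums of 144 to 284 after vehicle and 242 to 276 after CL. Of 5 epithelial and mesothelial markers, 4 were not tested because they were not detected on both arrays of either group. Every tested marker of the other lists was detected on all 4 arrays. The part of these cell types in the miR-30 values was not tested. Between 386 and 431 miRNAs were detected on an array, fewer on both CL arrays (386 and 403) than on both vehicle arrays (431 and 420).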

How the data were processed

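RNA of visWAT SVF was measured on 4 arrays, grouped by their labels. The authors deposited scanner files of Feature Extraction 10.7.1.1 with the linear intensity of each spot (52044 spots per array), and a log2 table of processed values. Its columns have medians of -3.31, -3.30, -3.20 and -3.26, and each median is also the lowest value of the array's miRNAs in that column. Against the scanner files, the deposited log2 values ranked as the sum of a miRNA's detected probes, were not centred and kept the direction of the signal. For normalization and testing, the study's methods give robust multi-array analysis and SAM. The latter, which permutes the labels of 2 against 2 arrays, was not run. In limma 3.58.1 (R 4.3.3), the mean spot intensity was background-corrected with normexp (offset 0, all spots), control and outlier spots were left out, and arrays were quantile-normalised and summarised by median polish on the log2 scale. Tested were the 425 of 1247 miRNAs that the scanner software detected throughout 1 group or both, by the two-sided moderated test of lmFit and eBayes, adjusted after Benjamini and Hochberg. A call in the text is an unadjusted p under 0.05 unless stated otherwise. The legend of the study gives 2 samples of 5 mice per group, so p-values rest on the spread between pools, and the number of arrays limits precision. In limma's moderated test, the spread of each miRNA is drawn toward that of all tested miRNAs, so its p-value does not measure its own spread alone.

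The miR-30 arms and the miRNA lists were chosen with earlier results of these data known. Named in the text are the 7 arms, their relatives by gene or seed, the 5 tested miRNAs nearest in pattern, and of each list the 3 called miRNAs with the largest change, besides the endothelial markers, which were named after their values were seen. Marker lists held miRNAs known for a cell type (miR-142, miR-150, miR-155 and miR-223 for leukocytes, miR-144, miR-451a and miR-486-5p for red cells, miR-126, the miR-199 and miR-214 group, miR-143 and miR-145a, the miR-200 family, and the muscle miRNAs miR-1a, miR-133a and miR-206). miR-486-5p was not analysed here. Sequences and their coordinates came from RefSeq (GRCm38.p6), which matched 1017 of the 1247 array miRNAs, and no coordinates were taken from the array files, whose headers name mm9. Alternatives covered background, scaling, summary, filter, test, the replicate block, a trend on probe sequence and length, and each array left out.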

Additional observations from a re-analysis of the deposited data

How the results depend on the processing

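Over 22 alternatives, 2 of them (quantile normalization of log2 signals, without and with the block) chosen after seeing the data, miR-30a-5p, miR-30c-5p and miR-30a-3p stayed lower after CL (log2 fold changes of -0.57 to -0.24, -0.71 to -0.31 and -0.68 to -0.34) and passed an unadjusted p of 0.05 in limma or the methods' t-test in 15, 11 and 18 of them. miR-30e-5p stayed higher (0.18 to 0.86) and passed in 2. The difference of miR-30a-5p minus miR-30e-5p stayed between -1.24 and -0.67. Adjusted p-values ranged from 0.0339 to 0.744 for miR-30a-5p, 0.0609 to 0.838 for miR-30c-5p, 0.0200 to 0.685 for miR-30a-3p and 0.00870 to 0.645 for miR-30e-5p. The median of the arms ran from -0.33, with a trend on probe sequence and length removed, to 0.10, with scaling to the 75th percentile of all probes.

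Of 3 called arms, median centring left 0, the 75th percentile over detected probes 1 and over all probes 0, the scanner total 1 and the deposited log2 values 1. With 1 array left out, the log2 fold change was -0.49 to -0.38 for miR-30a-5p, -0.55 to -0.31 for miR-30c-5p and -0.57 to -0.47 for miR-30a-3p. Directions turned for miR-30b-5p (0.104 with the 75th percentile of all probes, 0.10 with the scanner total, and -0.235 to 0.0196 with an array left out, the last without vehicle array 1), miR-30d-5p (0.15 with the 75th percentile of all probes, 0.14 with the trend removed, and -0.179 to 0.128 with an array left out, the last without vehicle array 1), miR-30e-3p (0.14 with the 75th percentile of all probes, 0.0188 with the scanner total) and miR-30c-2-3p (0.14 with the scanner total). With all 4 arrays kept, called miRNAs ran from 0 to 7 for promoters of browning and 0 to 4 for its restrainers. They ran from 1 to 4 for promoters of adipogenesis and 1 to 4 for its restrainers. With the filter on dim miRNAs kept, calls over all tested miRNAs ran from 52 to 167 in these alternatives. Without that filter, 211 of 1247 miRNAs were called. The cause was not tested.

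Over all tested miRNAs, adjusted calls went from 0 to 64 without normalization, 44 with median centring, 1 and 95 with the 75th percentile over detected and over all probes, 27 with the scanner total, 7 with the deposited log2 values, 2 when limma followed an intensity trend, 31 with the probe trend removed and 1 (without vehicle array 2) to 229 (without vehicle array 1) with an array left out. Unadjusted calls went from 149 to 91 with median centring, 52 with the methods' t-test and 61 (without CL array 1) to 262 (without vehicle array 1). No normalization shifted the median of all miRNAs by -0.12 and put 34.3% of calls on the higher side (42.6% in the deposited log2 values), against 53.7%, and the 75th percentile of all probes shifted it by 0.14. With the replicate block, 86 miRNAs passed an adjusted p of 0.05, and 40 with log2 quantile normalization as well. Labels do not say that the numbers pair the arrays, whose same-numbered deviations correlated at 0.121 over 425 miRNAs. Of the 11 probes set against a RefSeq arm, 0 matched another array miRNA with a sequence, so leaving out matching probes gave no separate value. The probes of miR-30b-5p and miR-30d-5p could not be checked, nor could matches to these 2 arms. Signal over background limits miR-30e-3p most among the 7 arms, with 24 to 35 of its 40 spots well above it.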
